A study of Mus musculus with 15 samples.

Results

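A set of 10 mouse genes that sit between growth signals and the decision to divide is described across 5 groups of liver. They were chosen by name: the p53 target genes Cdkn1a, Mdm2, Ccng1 and Trp53inp1, the cyclin-dependent kinase (CDK) inhibitors Cdkn2a, Cdkn2b and Cdkn1b, the D cyclins Ccnd1 and Ccnd2, and Myc. All 10 were among the 24411 genes counted, and all 10 passed the low-count filter that left 14098 genes for testing. PolyA RNA of male FVB/NJ mouse liver was sequenced in 15 libraries, 3 in each group. WT was wild-type liver. CTNNB1_NFE2L2_MET carried CTNNB1, the β-catenin gene, with the mutation S45Y, NFE2L2, the gene of NRF2, with the mutation G31A, and hMET, human MET, the receptor of hepatocyte growth factor. CTNNB1_MET, CTNNB1_NFE2L2 and NFE2L2_MET each carried the pair of these genes in their names, with the same mutations, and NFE2L2_MET was the only model without mutant CTNNB1. The labels give no age, harvest time, way of delivery or promoter for the introduced genes, and they do not say which liver cells carried them. Nothing there ties each library to its own mouse, and the p-values then cover only how far these samples spread, which may be technical.

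As background, progression from G1 into S phase is driven by D cyclins bound to the kinases CDK4 and CDK6, which phosphorylate the retinoblastoma protein and release E2F factors. Ccnd1 is a textbook target of β-catenin and of receptor tyrosine kinase signalling, and Myc responds to both as well as encoding a factor that drives growth. The INK4 proteins p16 (one of the products of Cdkn2a) and p15 (Cdkn2b) block CDK4 and CDK6, while p27 (Cdkn1b) and p21 (Cdkn1a) act more widely on cyclin and CDK complexes. The transcription factor p53 induces Cdkn1a, Ccng1, Trp53inp1 and Mdm2, and the MDM2 protein in turn marks p53 for destruction, which closes a feedback loop. NRF2 controls antioxidant genes and is normally held down by KEAP1.

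Gene counts summed to 14084343 to 20702618 per library. The share of reads that did not map was 19.83 to 25.93% in WT and 8.691 to 19.14% in the models, so it separated WT from every model. It was 15.79 to 19.14% in CTNNB1_MET, 12.65 to 14.19% in NFE2L2_MET, 9.712 to 11.76% in CTNNB1_NFE2L2 and 8.691 to 11.25% in CTNNB1_NFE2L2_MET. Among the models, only the ranges of CTNNB1_NFE2L2 and CTNNB1_NFE2L2_MET overlapped. Hepatocyte markers (8 of 8, none at 0) were abundant in each library but differed between groups, with summed levels of 74997 to 99822 CPM (counts scaled to TMM-adjusted totals) in WT, 64427 to 71370 in CTNNB1_NFE2L2_MET, 25859 to 34444 in CTNNB1_NFE2L2, 127066 to 136305 in CTNNB1_MET and 132330 to 177370 in NFE2L2_MET. Of these 8 markers, 7 fell against WT in CTNNB1_NFE2L2_MET and 7 in CTNNB1_NFE2L2, the groups with the highest means of Mdm2, Ccng1 and Ccnd1, and the part of this shift in their values was not tested. In CTNNB1_MET and NFE2L2_MET only Alb and Apoa1 were called, both higher, and 6 markers did not pass. The median log2 fold changes of the markers there were -0.15 and -0.00. Mki67, a proliferation marker, averaged 3.22 CPM in WT, 6.82 in NFE2L2_MET, 25.6 in CTNNB1_MET, 51 in CTNNB1_NFE2L2 and 74.3 in CTNNB1_NFE2L2_MET. Axin2, a β-catenin target, rose in the 3 models with mutant CTNNB1 and fell in NFE2L2_MET. Nqo1, an NRF2 target, rose 18.7- to 49.9-fold in the 3 with mutant NFE2L2, and also rose 1.69-fold in CTNNB1_MET (adjusted p = 0.0106), which lacks it. After the values were seen, 3 libraries were taken to stand apart from their groups, without a fixed rule. They were WT replicate 3 in Cdkn1a and Trp53inp1, CTNNB1_NFE2L2_MET replicate 1 in Cdkn1a, Cdkn2b, Trp53inp1 and Myc, and NFE2L2_MET replicate 1 in Myc. Others also lay apart in single genes. Examples are WT replicate 2 in Myc (8.9 CPM against 3.81 and 3.4) and CTNNB1_NFE2L2 replicate 1 in Ccnd2 (11.5 CPM against 7.21 and 6.61). WT replicate 3 also had a summed stellate and fibroblast marker level of 251 CPM against 589 and 603 in the other WT libraries, and is 1 of 3 libraries whose file label carries an extra mark of unstated meaning. Each member call that was lost when 1 or all of the 3 libraries taken to stand apart were left out is named below.

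Against WT, Ccnd1 rose in the models that carried mutant CTNNB1, Ccng1 rose in all 4 models, and Ccnd2 fell in all 4. CTNNB1_NFE2L2_MET had the most changes, with Cdkn1a, Cdkn2b, Mdm2, Ccng1, Ccnd1 and Myc higher and Ccnd2 lower. By the edgeR quasi-likelihood F test with Benjamini-Hochberg adjustment over all tested genes (threshold 0.05), 7 of the 10 genes were called in CTNNB1_NFE2L2_MET, 6 higher and 1 lower, where 49.9% of all tested genes were called (26.5% higher, 23.4% lower). In CTNNB1_MET 2 were higher and 1 lower, where 17.2% of all tested genes were called (11% higher, 6.22% lower). In CTNNB1_NFE2L2 3 were higher and 1 lower, where 48.7% were called (24.5% higher, 24.2% lower). In NFE2L2_MET 3 were higher and 1 lower, where 23.4% were called (13.5% higher, 9.89% lower). The members' share was below that of all tested genes in CTNNB1_NFE2L2 and above it in the other models, a description over 10 genes with no test. A term for the unmapped share in the fit left 1 call against WT over the 4 models, Ccnd1 in CTNNB1_MET, and that share and genotype cannot be told apart. The median log2 fold change of the 10 genes was 0.73 in CTNNB1_NFE2L2_MET, 0.65 in CTNNB1_NFE2L2, 0.28 in CTNNB1_MET and 0.17 in NFE2L2_MET, beside all-gene medians of -0.02 to 0. In bulk liver, fewer cells of a type and less RNA per cell cannot be told apart. The 4 comparisons share the same WT libraries.

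**Figure D1:**
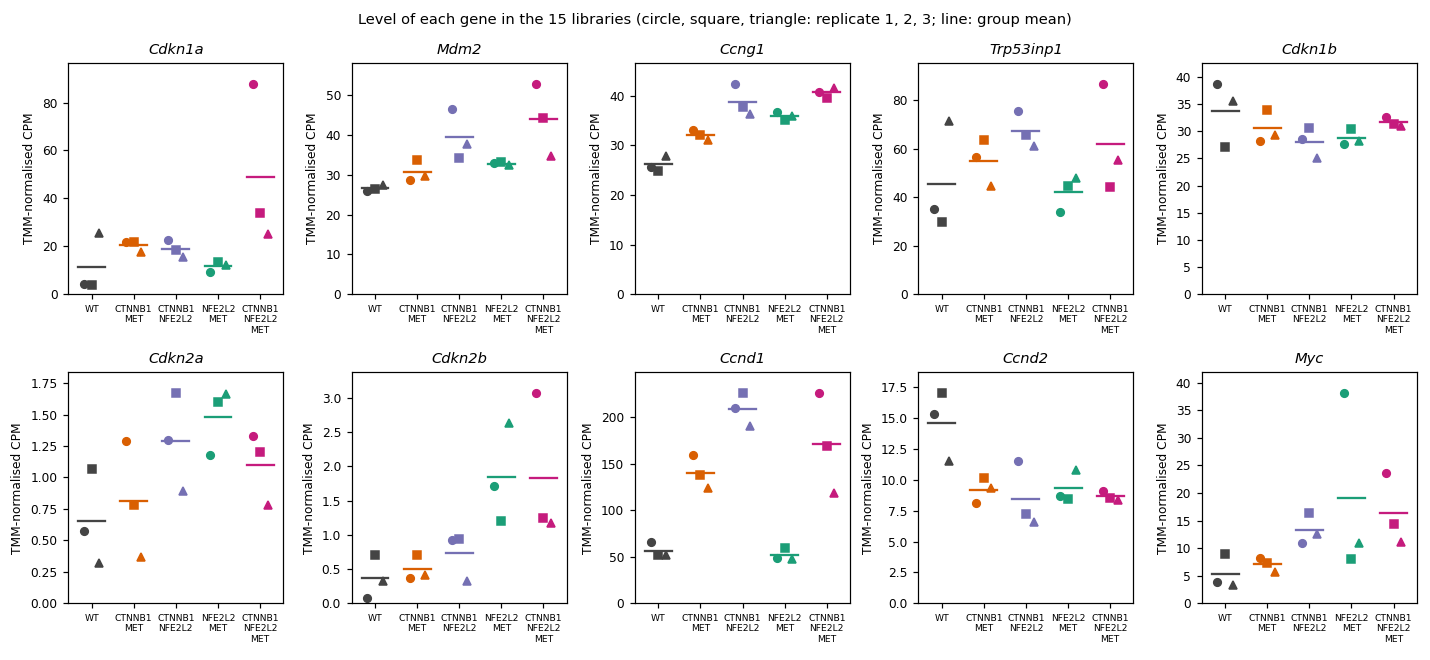
Level of each of the 10 genes (TMM-normalised CPM, linear axis from 0, a panel per gene) in the 15 libraries by group; circles, squares and triangles are replicates 1, 2 and 3 and lines are group means. Cdkn1a in WT replicate 3 (25.7 CPM) lies far above the other WT libraries, and the 9 libraries with mutant CTNNB1 all lie above the other 6 for Ccnd1.

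**Figure D2:**
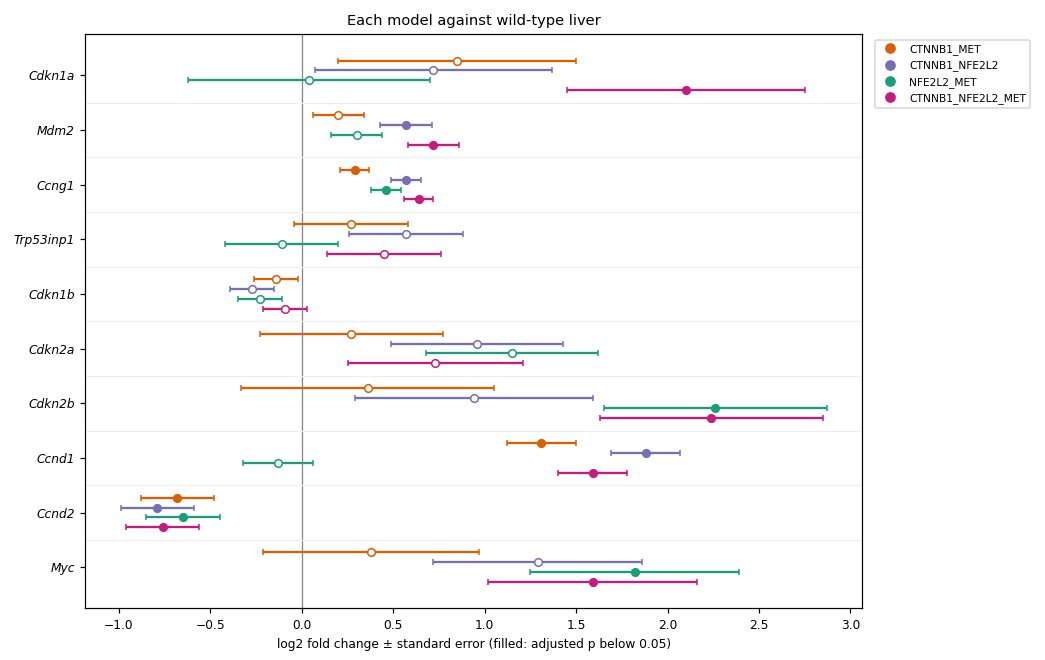
Log2 fold change against WT, with its standard error, for each gene in the 4 models; filled points passed an adjusted p of 0.05. Ccng1 lies above 0 and Ccnd2 below 0 in all 4 models, and Ccnd1 lies at 1.31 to 1.88 in the 3 models with mutant CTNNB1 and at -0.13 in NFE2L2_MET.

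Cdkn1a encodes p21, the CDK inhibitor through which p53 halts the cell cycle. The gene lies at chr17:29090976-29100727 on the plus strand (GRCm38). RefSeq (GRCm38.p6) gives windows around a start site for 6 of the 10 genes, 8 windows in all, each running from 250 bases before to 50 after the start. In 2 of these windows a p53 element was found, defined as the consensus p53 element of 20 bases with the core C and G of each part kept, at most 1 mismatch and no spacer, a pattern that equals its own reverse complement and so was read on both strands. The same element was in 22 of 32851 such windows, or 0.067%. It is shown for these p53 targets because p21 and cyclin G1 are the members whose window holds it. Cdkn1a has another start site further downstream, whose window (chr17:29093519-29093818) lacks the element. The part upstream of the start site in the 2 windows with the element is printed 5′ to 3′, with the element in capitals. Cdkn1a comes first (chr17:29090729-29090978, plus strand, element starting at -51), then Ccng1 (chr11:40755287-40755536, minus strand, element starting at -195).
Cdkn1a: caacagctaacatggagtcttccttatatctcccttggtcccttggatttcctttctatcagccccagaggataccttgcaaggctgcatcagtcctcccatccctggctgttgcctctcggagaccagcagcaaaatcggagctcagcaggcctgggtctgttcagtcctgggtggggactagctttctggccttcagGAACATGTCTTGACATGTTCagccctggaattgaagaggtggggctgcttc
Ccng1: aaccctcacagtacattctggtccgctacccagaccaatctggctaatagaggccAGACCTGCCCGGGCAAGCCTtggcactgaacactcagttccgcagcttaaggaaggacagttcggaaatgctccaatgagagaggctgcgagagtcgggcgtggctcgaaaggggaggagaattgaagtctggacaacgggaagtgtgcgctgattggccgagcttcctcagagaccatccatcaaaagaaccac
The NRF2-bound antioxidant response element TGACNNNGC, searched on both strands, was in 12.4% of all windows. Among the windows of these genes it was in the other Cdkn1a window (chr17:29093519-29093818, match starting at 27), in 1 of the Cdkn2a windows (-70) and in that of Cdkn1b (-2), and it overlapped no p53 element. A match describes the letters only.

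Cdkn1a levels were 4.39, 4.03 and 25.7 CPM in the WT libraries and 87.7, 33.8 and 25.0 CPM in CTNNB1_NFE2L2_MET. They were 21.9, 22.0 and 17.5 CPM in CTNNB1_MET, 22.5, 18.4 and 15.5 in CTNNB1_NFE2L2, and 9.13, 13.6 and 12.4 in NFE2L2_MET. WT replicate 3 was thus above every CTNNB1_MET, CTNNB1_NFE2L2 and NFE2L2_MET library, while the other WT libraries were below every model library. In CTNNB1_NFE2L2_MET, Cdkn1a rose 4.29-fold over WT (log2 fold change 2.10 ± 0.65 (SE), adjusted p = 0.0185). Without WT replicate 3 that value was 3.54 ± 0.53 (adjusted p = 0.00024). It missed the threshold without WT replicate 1 (1.72, adjusted p = 0.0599), WT replicate 2 (1.69, 0.0607) or CTNNB1_NFE2L2_MET replicate 1 (1.37, 0.101), or in a fit of those groups alone (2.11, 0.0969). In CTNNB1_MET the log2 fold change was 0.85 ± 0.65 (adjusted p = 0.416), and without WT replicate 3 it was 2.28 ± 0.52 (adjusted p = 0.0134). In CTNNB1_NFE2L2 it was 0.72 ± 0.65 (adjusted p = 0.386), and 2.16 ± 0.52 without WT replicate 3 (adjusted p = 0.00551). In NFE2L2_MET it was 0.04 ± 0.66 (adjusted p = 0.974), and 1.48 ± 0.52 without WT replicate 3 (adjusted p = 0.0671). All 3 libraries that stood apart were also left out together, a choice made after their values were seen. The log2 fold changes of Cdkn1a were then 1.63 in NFE2L2_MET, 2.16 in CTNNB1_NFE2L2, 2.28 in CTNNB1_MET and 2.81 in CTNNB1_NFE2L2_MET. WT replicate 3 and CTNNB1_NFE2L2_MET replicate 1 stood apart in Cdkn1a itself, so that fit gives no test of it.

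Mdm2, whose product ubiquitinates p53, lies at chr10:117688875-117710758 on the minus strand. Its level was 26.0, 26.5 and 27.4 CPM in WT, a narrow range that no model library entered. It was 52.8, 44.4 and 34.8 CPM in CTNNB1_NFE2L2_MET, 46.6, 34.3 and 37.8 in CTNNB1_NFE2L2, 28.6, 33.7 and 29.7 in CTNNB1_MET and 32.9, 33.1 and 32.5 in NFE2L2_MET. Mdm2 rose 1.65-fold over WT in CTNNB1_NFE2L2_MET (0.72 ± 0.14 log2, adjusted p = 0.000463) and 1.49-fold in CTNNB1_NFE2L2 (0.57 ± 0.14, adjusted p = 0.00306). Both calls held with each library left out in turn. The values in CTNNB1_MET (0.20 ± 0.14, adjusted p = 0.347) and NFE2L2_MET (0.30 ± 0.14, adjusted p = 0.13) missed the threshold. In the order of the 5 group means, from CTNNB1_NFE2L2_MET through CTNNB1_NFE2L2, NFE2L2_MET and CTNNB1_MET to WT, no group differed from the next by the test.

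Ccng1 encodes cyclin G1, a p53-induced cyclin-like protein that acts with protein phosphatase 2A on MDM2. It lies at chr11:40748552-40755311 on the minus strand. Its level was 25.7, 24.9 and 27.8 CPM in WT and 40.8, 39.5 and 41.6 CPM in CTNNB1_NFE2L2_MET. It was 42.3, 37.7 and 36.2 CPM in CTNNB1_NFE2L2, 36.6, 35.1 and 35.9 in NFE2L2_MET and 33.0, 32 and 31 in CTNNB1_MET. All 12 model libraries were above all WT libraries, and the libraries of each group lay close together, so that small differences passed the test. Ccng1 rose 1.55-fold in CTNNB1_NFE2L2_MET (0.64 ± 0.08 log2, adjusted p = 1.68e-05), 1.48-fold in CTNNB1_NFE2L2 (0.57 ± 0.08, 5.36e-05), 1.37-fold in NFE2L2_MET (0.46 ± 0.08, 0.00124) and 1.23-fold in CTNNB1_MET (0.29 ± 0.08, 0.0256). The CTNNB1_MET call was lost when WT replicate 1 (0.28, adjusted p = 0.064), WT replicate 2 (0.25, 0.0954), CTNNB1_MET replicate 1 (0.27, 0.0888) or CTNNB1_MET replicate 2 (0.29, 0.0668) was left out, with total-count scaling (0.27, 0.0749) and in a fit of those groups alone (0.29, 0.109). The others held with each library left out.

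Macrophage markers were called higher than WT in all 4 models, as Ccng1 was, while Mdm2 passed only in CTNNB1_NFE2L2_MET and CTNNB1_NFE2L2. Of 8 markers, 7 rose in CTNNB1_NFE2L2_MET, 7 in CTNNB1_NFE2L2, 7 in NFE2L2_MET and 4 in CTNNB1_MET, and 0 fell. Over all tested genes 26.5%, 24.5%, 13.5% and 11% were called higher in the same order. Summed over 8 of 8 markers, none of them at 0, they reached 198 to 221 CPM in WT, 401 to 606 in CTNNB1_NFE2L2_MET, 415 to 557 in CTNNB1_NFE2L2, 358 to 440 in NFE2L2_MET and 251 to 314 in CTNNB1_MET. Their part in the values of Mdm2 and Ccng1 was not tested.

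Trp53inp1, at chr4:11156431-11174379 on the plus strand, encodes a stress protein that promotes p53 activity and autophagy. Its level was 35.2, 29.8 and 71.2 CPM in WT, with WT replicate 3 again the high library. It was 86.6, 44.0 and 55.2 CPM in CTNNB1_NFE2L2_MET, 75.4, 65.7 and 61.0 in CTNNB1_NFE2L2, 56.5, 63.4 and 44.8 in CTNNB1_MET and 33.9, 44.4 and 47.8 in NFE2L2_MET. Trp53inp1 passed the test in no comparison, with 0.45 ± 0.31 log2 in CTNNB1_NFE2L2_MET against WT (adjusted p = 0.253) and 0.57 ± 0.31 in CTNNB1_NFE2L2 (adjusted p = 0.15). Without WT replicate 3 these became 0.93 ± 0.25 (adjusted p = 0.00922) and 1.05 ± 0.26 (adjusted p = 0.00492), and the values for CTNNB1_MET (0.75, adjusted p = 0.0633) and NFE2L2_MET (0.37, adjusted p = 0.328) still missed the threshold. Trp53inp1 and Cdkn1a therefore share a high WT library, and CTNNB1_NFE2L2_MET replicate 1 was the highest of all libraries for both.

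Of 23 further p53 target genes, 11 rose and 2 fell in CTNNB1_NFE2L2_MET against WT, with a list median of 0.45 log2. The counts were 6 and 0 in CTNNB1_MET (median 0.27), 9 and 3 in CTNNB1_NFE2L2 (0.42) and 7 and 2 in NFE2L2_MET (0.23). Over all tested genes 49.9%, 17.2%, 48.7% and 23.4% were called in these models in the same order. In CTNNB1_NFE2L2_MET and CTNNB1_NFE2L2 the number of targets called in either direction lies near that background. By direction, 26.5%, 11%, 24.5% and 13.5% of all tested genes were called higher and 23.4%, 6.22%, 24.2% and 9.89% lower. The targets' share called higher was above these values in each model and their share called lower was below them, a description with no test. Tigar, which lowers glycolytic flux, rose 2.70-fold in CTNNB1_NFE2L2 (1.43 ± 0.13 log2, adjusted p = 3.46e-07) and 2.15-fold in CTNNB1_NFE2L2_MET (1.1 ± 0.13, 4.7e-06). Eda2r, a member of the TNF receptor family, rose from a low 0.298 ± 0.112 CPM (SD, n = 3) in WT to 2.93 ± 0.542 in CTNNB1_MET (3.25 ± 0.50 log2, adjusted p = 0.000401). Phlda3, an inhibitor of AKT, rose in CTNNB1_MET (1.19 ± 0.27, adjusted p = 0.00731) and CTNNB1_NFE2L2_MET (1.5 ± 0.27, 0.000264) and had values of -0.05 and -0.20 in CTNNB1_NFE2L2 and NFE2L2_MET. Bax, a pore-forming apoptosis protein, rose in the 3 models with mutant CTNNB1 by 0.45 to 0.64 log2 (adjusted p = 0.00465, 0.0066 and 0.000288 in CTNNB1_NFE2L2, CTNNB1_MET and CTNNB1_NFE2L2_MET) and stood at 0.02 in NFE2L2_MET (adjusted p = 0.92). Perp, a desmosome protein, fell in CTNNB1_NFE2L2 (-0.72 ± 0.11, adjusted p = 8.49e-05). Ei24 fell in CTNNB1_NFE2L2_MET and CTNNB1_NFE2L2, from 153 ± 25.6 CPM in WT to 93.5 ± 10.3 and 99 ± 4.18 (SD, n = 3). In NFE2L2_MET the called targets with the smallest p were Aen, Tigar and Polk, and all of them rose. Their means went from 19.5 to 27.4, from 11.8 to 17.8 and from 3.54 to 6.11 CPM in that order. Called p53 targets thus went both ways in CTNNB1_NFE2L2_MET, CTNNB1_NFE2L2 and NFE2L2_MET. In CTNNB1_MET 6 rose, 0 fell and 17 did not pass. Trp53 itself averaged 20.9 CPM in WT and 19.5 to 21.6 CPM in the models, and its log2 fold changes of -0.10 to 0.04 missed the threshold in all 4 (adjusted p = 0.737 to 0.889).

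**Figure D3:**
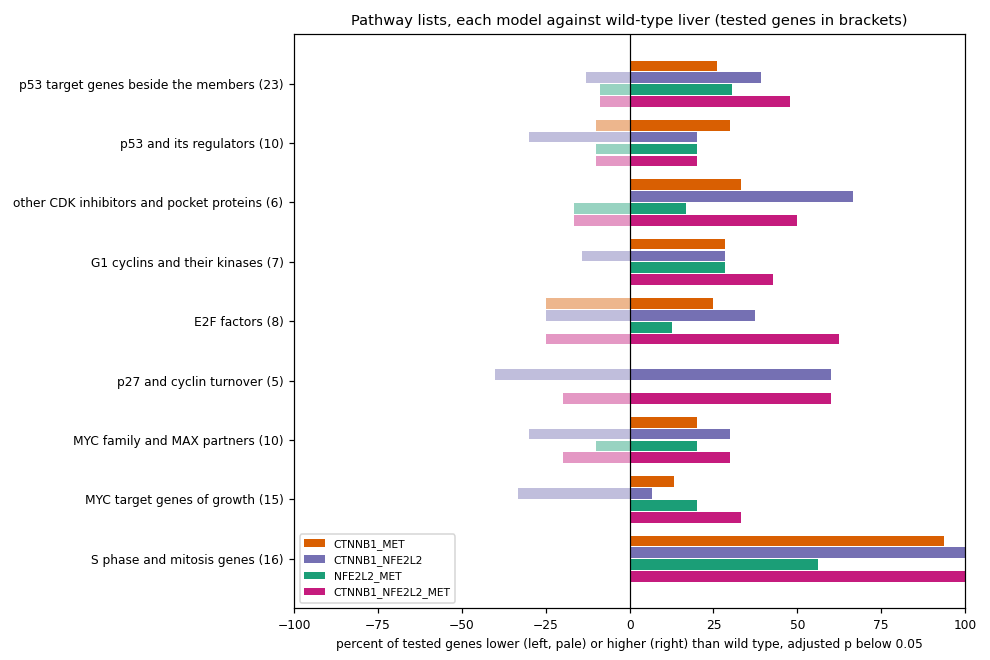
Percent of the tested genes of each pathway list that were higher (bars to the right) or lower (pale bars to the left) than WT at an adjusted p under 0.05, coloured by model, with the number tested in brackets. All 16 S phase and mitosis genes were higher in CTNNB1_NFE2L2_MET and CTNNB1_NFE2L2, 15 in CTNNB1_MET and 9 in NFE2L2_MET, while the p53 target list held genes that rose, genes that fell and genes that did not pass.

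Cdkn2b and Cdkn2a are neighbours on chromosome 4, at chr4:89306299-89311039 and chr4:89274471-89294653, both on the minus strand. Cdkn2a also encodes p19Arf, which stabilises p53 by binding MDM2, and gene-level counts do not separate its p16 and p19Arf transcripts. Both genes were near the lower end of what these libraries could measure. Cdkn2b was at 0.0719, 0.712 and 0.321 CPM in WT and at 3.07, 1.25 and 1.17 CPM in CTNNB1_NFE2L2_MET. It was at 1.71, 1.20 and 2.63 CPM in NFE2L2_MET, 0.368, 0.709 and 0.418 in CTNNB1_MET and 0.918, 0.941 and 0.333 in CTNNB1_NFE2L2. The libraries of CTNNB1_NFE2L2_MET and NFE2L2_MET, the models with both NFE2L2 and MET, were all above those of the other 3 groups. Cdkn2b rose 4.72-fold over WT in CTNNB1_NFE2L2_MET (2.24 ± 0.61 log2, adjusted p = 0.00627) and 4.80-fold in NFE2L2_MET (2.26 ± 0.61, adjusted p = 0.0149). The values in CTNNB1_MET (0.36 ± 0.69, adjusted p = 0.771) and CTNNB1_NFE2L2 (0.94 ± 0.65, adjusted p = 0.249) missed the threshold. The NFE2L2_MET call was lost without WT replicate 1 (1.82, adjusted p = 0.055) or NFE2L2_MET replicate 3 (1.92, 0.0644). Removal of the 3 libraries with marked file labels lost it as well (2.16, 0.0596). The CTNNB1_NFE2L2_MET call held with each library left out, but its size moved from 1.65 without CTNNB1_NFE2L2_MET replicate 1 (adjusted p = 0.0401) to 3.14 without WT replicate 2 (0.00269), and it was lost without the 3 libraries that stood apart (1.54, adjusted p = 0.103). Without WT replicate 2 the NFE2L2_MET value was 3.15 (adjusted p = 0.00747). The WT libraries held only 1, 12 and 5 counts of Cdkn2b.

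Cdkn2a levels spanned 0.321 to 1.07 CPM in WT, 0.365 to 1.29 in CTNNB1_MET, 0.778 to 1.33 in CTNNB1_NFE2L2_MET, 0.889 to 1.67 in CTNNB1_NFE2L2 and 1.18 to 1.66 in NFE2L2_MET. Cdkn2a passed the test in no comparison. Its largest difference from WT was 1.15 ± 0.47 log2 in NFE2L2_MET (adjusted p = 0.0926), where the libraries did not overlap those of WT. Without WT replicate 2 that value became 1.72 (adjusted p = 0.036), and the value in CTNNB1_NFE2L2 went from 0.96 ± 0.47 (adjusted p = 0.108) to 1.54 (adjusted p = 0.0314).

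Cdkn1b, encoding p27, lies at chr6:134920401-134925513 on the plus strand and differed least between the groups. It averaged 33.8 ± 6.03 CPM in WT (SD, n = 3), 31.7 ± 0.915 in CTNNB1_NFE2L2_MET, 30.5 ± 3 in CTNNB1_MET, 28.8 ± 1.43 in NFE2L2_MET and 28.0 ± 2.88 in CTNNB1_NFE2L2. Each model's range overlapped that of WT. Its log2 fold changes against WT were -0.09 to -0.27 with a standard error of 0.12, and none passed (adjusted p = 0.0854 to 0.562). Without WT replicate 2, Cdkn1b was called lower in CTNNB1_NFE2L2 (-0.39 ± 0.11, adjusted p = 0.00978) and NFE2L2_MET (-0.37 ± 0.11, adjusted p = 0.0274). Of 5 genes for the turnover of p27 and cyclins, 3 rose and 1 fell in CTNNB1_NFE2L2_MET, where 49.9% of all tested genes were called. Skp2, the receptor that sends p27 for degradation, rose 2.07-fold there (1.05 ± 0.24 log2, adjusted p = 0.00216) and 1.81-fold in CTNNB1_NFE2L2 (0.86 ± 0.25, adjusted p = 0.00931).

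A CDK inhibitor gene outside the 10 rose in all 4 models. Cdkn2c, which encodes the INK4 protein p18, averaged 4.62 ± 0.345 CPM in WT (SD, n = 3), 24.8 ± 4.14 in CTNNB1_NFE2L2, 22.1 ± 3.84 in CTNNB1_NFE2L2_MET, 12.4 ± 1.30 in CTNNB1_MET and 8.28 ± 0.988 in NFE2L2_MET. It rose by 2.43 ± 0.17, 2.26 ± 0.17, 1.42 ± 0.17 and 0.85 ± 0.17 log2 in that order across these models (adjusted p = 2.37e-08, 5.35e-08, 3.45e-05 and 0.00248). Of the 6 other CDK inhibitors and pocket proteins, 3 rose and 1 fell in CTNNB1_NFE2L2_MET (49.9% of all tested genes called), the fall being that of the pocket protein gene Rbl2, from 40.6 ± 6.47 to 21.9 ± 3.07 CPM.

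Ccnd1, encoding cyclin D1, lies at chr7:144929931-144939925 on the minus strand. Its level was 66.3, 52.4 and 51.6 CPM in WT and 49.2, 59.2 and 47.7 CPM in NFE2L2_MET. It was 226, 169 and 119 CPM in CTNNB1_NFE2L2_MET, 160, 138 and 124 in CTNNB1_MET and 210, 226 and 191 in CTNNB1_NFE2L2. The 9 libraries with mutant CTNNB1 were all above the 6 without it. Ccnd1 rose 3.69-fold over WT in CTNNB1_NFE2L2 (1.88 ± 0.19 log2, adjusted p = 1.93e-06), 3.02-fold in CTNNB1_NFE2L2_MET (1.59 ± 0.19, 8.55e-06) and 2.48-fold in CTNNB1_MET (1.31 ± 0.19, 0.000284). In NFE2L2_MET, where MET was present without mutant CTNNB1, the value was -0.13 ± 0.19 (adjusted p = 0.667). Against NFE2L2_MET, Ccnd1 was higher by 2.01 ± 0.19 in CTNNB1_NFE2L2 (adjusted p = 2e-06), 1.72 ± 0.19 in CTNNB1_NFE2L2_MET (1.28e-05) and 1.43 ± 0.19 in CTNNB1_MET (0.000104). These 6 calls held with each library left out. Ccnd1 shares 1100 exon bases with a gene on the opposite strand, listed as Oraov1, and the counts do not use strand. Oraov1 changed against WT only in CTNNB1_MET, where it was lower (-0.39 ± 0.12, adjusted p = 0.0408).

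Ccnd2, encoding cyclin D2, lies at chr6:127125162-127152193 on the minus strand. Its level was 15.3, 17.0 and 11.5 CPM in WT, and 11 of 12 model libraries, or all but CTNNB1_NFE2L2 replicate 1, were at 10.8 CPM or lower. It was 9.06, 8.51 and 8.37 CPM in CTNNB1_NFE2L2_MET, 8.09, 10.1 and 9.35 in CTNNB1_MET, 11.5, 7.21 and 6.61 in CTNNB1_NFE2L2 and 8.66, 8.45 and 10.8 in NFE2L2_MET. Ccnd2 fell against WT by 0.79 log2 in CTNNB1_NFE2L2 (SE 0.20, adjusted p = 0.00384), by 0.76 in CTNNB1_NFE2L2_MET (0.20, 0.00464), by 0.68 in CTNNB1_MET (0.20, 0.0283) and by 0.65 in NFE2L2_MET (0.20, 0.027). The models' own differences were small, from -0.14 to 0.11 log2 with a standard error of 0.20, and none passed. Ccnd2 shares 368 exon bases with the antisense gene 9330179D12Rik, which reached at most 0.157 CPM. The calls in CTNNB1_NFE2L2_MET and CTNNB1_NFE2L2 held with each library left out. The CTNNB1_MET call was lost without WT replicate 1 (-0.64, adjusted p = 0.0734), WT replicate 2 (-0.56, 0.0954), CTNNB1_MET replicate 1 (-0.59, 0.117) or CTNNB1_MET replicate 3 (-0.69, 0.0595). The NFE2L2_MET call was lost without WT replicate 1 (-0.62, adjusted p = 0.0721), WT replicate 2 (-0.53, 0.093), NFE2L2_MET replicate 1 (-0.60, 0.0849) or NFE2L2_MET replicate 2 (-0.59, 0.0865). Stellate and fibroblast markers (7 of 7, none at 0) summed to 251 to 603 CPM in WT, 458 to 616 in CTNNB1_NFE2L2_MET, 397 to 478 in CTNNB1_MET, 139 to 221 in CTNNB1_NFE2L2 and 345 to 419 in NFE2L2_MET. Cholangiocyte markers (5 of 5, none at 0) summed to 57.9, 140 and 146 CPM in WT and lay between the lowest and the middle of these values or below in every model library, and the part of either list in the fall of Ccnd2 was not tested.

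Per kilobase of exon, Ccnd1 was the more abundant D cyclin in each group, at 12.1 RPKM (CPM divided by exon length in kilobases) in WT against 1.55 for Ccnd2, and at 44.4 against 0.897 in CTNNB1_NFE2L2. The remaining D cyclin gene, Ccnd3, averaged 29.8 CPM in WT and 24.4 to 29.9 in the models, with no call against WT (adjusted p = 0.0524 to 0.981). Of 7 further G1 cyclins and kinases, Cdk6 rose in all 4 models, by 1.38 ± 0.23 log2 in CTNNB1_NFE2L2_MET (adjusted p = 0.000154) down to 0.72 ± 0.24 in CTNNB1_MET (0.0479). Ccne1, encoding the E-type cyclin that acts after cyclin D, rose in all 4 as well, most in CTNNB1_MET (1.53 ± 0.23, adjusted p = 0.000296). Cdk4 had values of -0.01 to 0.01 in the models that combine CTNNB1 with MET, and was lower in CTNNB1_NFE2L2 (-0.31 ± 0.11, adjusted p = 0.0263). E2f1, an activating E2F factor, averaged 4.19 ± 0.83 CPM in WT and 14.7 ± 1.71 in CTNNB1_NFE2L2, while E2f8, a repressive one, averaged 30.1 ± 13.5 in WT and 5.81 ± 0.942 there (SD, n = 3).

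Myc lies at chr15:61985391-61990374 on the plus strand. Its level was 3.81, 8.90 and 3.40 CPM in WT and 23.7, 14.3 and 11.1 CPM in CTNNB1_NFE2L2_MET. It was 38.1, 8.05 and 11.0 CPM in NFE2L2_MET, 11.0, 16.3 and 12.6 in CTNNB1_NFE2L2 and 8.28, 7.30 and 5.64 in CTNNB1_MET. NFE2L2_MET replicate 1 was the highest of all libraries, and another library of the same group was below WT replicate 2. Myc rose over WT by 1.59 ± 0.57 log2 in CTNNB1_NFE2L2_MET (adjusted p = 0.0348) and by 1.82 ± 0.57 in NFE2L2_MET (adjusted p = 0.0384). Without NFE2L2_MET replicate 1 the NFE2L2_MET value was 0.82 (adjusted p = 0.184), and it also missed the threshold without WT replicate 1 (1.63, 0.116) or WT replicate 3 (1.57, 0.118). Without the 3 libraries that stood apart it was 0.57 (adjusted p = 0.282). The CTNNB1_NFE2L2_MET call was lost without WT replicate 1 (1.40, adjusted p = 0.106), WT replicate 3 (1.35, 0.116), CTNNB1_NFE2L2_MET replicate 1 (1.23, 0.134) or CTNNB1_NFE2L2_MET replicate 2 (1.68, 0.0555). Without WT replicate 2 both were larger, at 2.19 in CTNNB1_NFE2L2_MET (adjusted p = 0.0181) and 2.40 in NFE2L2_MET (0.0256). Without the low-count filter both calls were lost (1.60, adjusted p = 0.0629 in CTNNB1_NFE2L2_MET and 1.82, 0.0691 in NFE2L2_MET). Both were also lost without the 3 libraries with marked file labels (1.56, 0.118 and 1.57, 0.147 in the same order). The NFE2L2_MET call was also lost with a term for those libraries (1.63, 0.0637), with total-count scaling (1.72, 0.0529) or in a fit of the groups compared alone (1.82, 0.157). In CTNNB1_NFE2L2, where the libraries did not overlap those of WT, Myc had a value of 1.29 ± 0.57 (adjusted p = 0.0807), which passed without WT replicate 2 (1.90, adjusted p = 0.036). In CTNNB1_MET it was 0.38 ± 0.59 (adjusted p = 0.715). Immediate early genes summed to 325 CPM in CTNNB1_NFE2L2_MET replicate 1 against 160 and 181 in the other libraries of that group, and to 203 in NFE2L2_MET replicate 1 against 224 and 219. They were also high in WT replicate 1 (312, against 186 and 189) and CTNNB1_NFE2L2 replicate 1 (343, against 224 and 185), where Myc was not, and their part in the Myc values was not tested.

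Of 10 further MYC family and MAX network genes, 3 rose and 2 fell in CTNNB1_NFE2L2_MET against WT, where 49.9% of all tested genes were called. Mycn, the relative of Myc that is active in embryonic tissue, took another order across the groups than Myc. It averaged 2.46 ± 1.03 CPM in WT, 9.57 ± 1.12 in CTNNB1_MET, 7.25 ± 0.766 in CTNNB1_NFE2L2_MET, 2.90 ± 1.43 in NFE2L2_MET and 0.869 ± 0.295 in CTNNB1_NFE2L2 (SD, n = 3). It rose in the models that combine CTNNB1 with MET (1.96 ± 0.33 and 1.56 ± 0.32 log2, adjusted p = 0.000719 and 0.000933) and fell in CTNNB1_NFE2L2 (-1.48 ± 0.38, adjusted p = 0.00503). Max, the partner of MYC, averaged 28.6 ± 3.19 CPM in WT, 51 ± 5.98 in CTNNB1_NFE2L2 and 46.0 ± 3.18 in CTNNB1_NFE2L2_MET. Of 15 MYC target genes of growth, 5 rose and 0 fell in CTNNB1_NFE2L2_MET, 2 and 0 in CTNNB1_MET, 1 and 5 in CTNNB1_NFE2L2 and 3 and 0 in NFE2L2_MET. In each model the share of these targets called in either direction was below that of all tested genes (49.9%, 17.2%, 48.7% and 23.4% in the same order). The share called higher was above that of all tested genes in CTNNB1_NFE2L2_MET, CTNNB1_MET and NFE2L2_MET (26.5%, 11% and 13.5%). It was below that share in CTNNB1_NFE2L2 (24.5%), and no test was made.

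The model with all 3 introduced genes was next compared with each model that lacks 1 of them. Against NFE2L2_MET, which lacks mutant CTNNB1, Ccnd1, Cdkn1a and Mdm2 were higher, or 3 of the 10 genes, where 30.7% of all tested genes were called (16.4% higher, 14.3% lower). Cdkn1a differed by 2.06 ± 0.64 log2 (adjusted p = 0.0314) with no overlap between libraries. That call was lost without CTNNB1_NFE2L2_MET replicate 1 (1.33, adjusted p = 0.157) or any 1 of the NFE2L2_MET libraries (1.90 to 2.18, 0.0752 to 0.103). It was also lost without the low-count filter (2.05, 0.056). Without the 3 libraries that stood apart the value was 1.17. Since these libraries were picked partly by their Cdkn1a levels, that fit gives no test of Cdkn1a. Mdm2 differed by 0.42 ± 0.14 (adjusted p = 0.0285) and lost its call without CTNNB1_NFE2L2_MET replicate 1 (0.27, adjusted p = 0.162), CTNNB1_NFE2L2_MET replicate 2 (0.42, 0.068) or any 1 of the NFE2L2_MET libraries (0.41 to 0.43, 0.0643 to 0.0693), or in a fit of those groups alone (0.40, 0.0576). The Mdm2 call was also lost without the 3 libraries that stood apart (0.27, adjusted p = 0.241). Ccnd1 was the only 1 of the 3 genes called that held with each library left out.

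Against CTNNB1_MET, which lacks mutant NFE2L2, 3 of the 10 genes were called, all higher, where 33.8% of all tested genes were called (18.4% higher, 15.4% lower). They were Mdm2 (0.52 ± 0.14 log2, adjusted p = 0.00842), Ccng1 (0.34 ± 0.08, 0.00484) and Cdkn2b (1.88 ± 0.58, 0.0208). Ccng1 held with each library left out. Mdm2 was lost without CTNNB1_NFE2L2_MET replicate 1 (0.37, adjusted p = 0.0527), and Cdkn2b without that library (1.29, 0.124), CTNNB1_MET replicate 1 (1.71, 0.073) or CTNNB1_MET replicate 3 (1.77, 0.0755). Both were also lost without the 3 libraries that stood apart (0.37, adjusted p = 0.0653 for Mdm2 and 1.29, 0.141 for Cdkn2b). Cdkn2b was lost as well without the 3 libraries with marked file labels (2.01, adjusted p = 0.067). Ccnd1, at 0.28 ± 0.19, missed the threshold (adjusted p = 0.259) and passed without CTNNB1_NFE2L2_MET replicate 3 (0.49, adjusted p = 0.0277).

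Against CTNNB1_NFE2L2, which lacks MET, edgeR called 0 of the 10 genes and DESeq2 called 0, where edgeR called 25% of all tested genes (13.1% higher, 11.8% lower). At an unadjusted p under 0.05 there were 2, Cdkn1a (1.38 ± 0.62 log2, adjusted p = 0.129) and Cdkn2b (1.30 ± 0.54, adjusted p = 0.0914), and the libraries overlapped for neither. Ccnd1 had a value of -0.29 ± 0.19 (adjusted p = 0.276) and was called lower without CTNNB1_NFE2L2_MET replicate 1 (-0.54, adjusted p = 0.0359). Of the 16 S phase and mitosis genes, 16 were higher against NFE2L2_MET, 16 against CTNNB1_MET and 3 against CTNNB1_NFE2L2. These comparisons share the CTNNB1_NFE2L2_MET libraries.

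**Figure D4:**
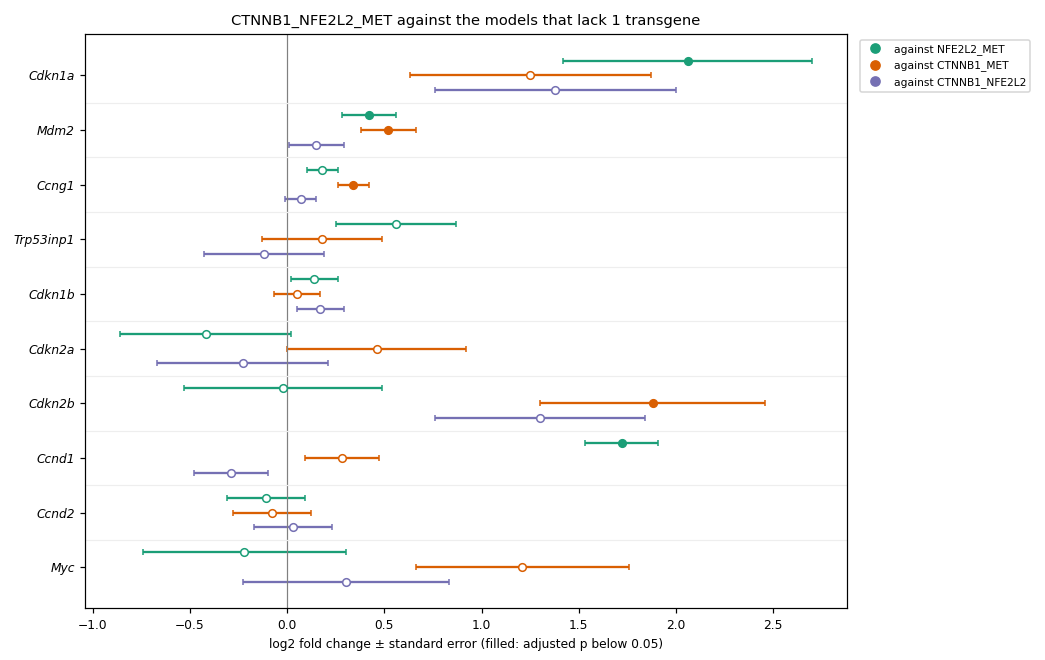
Log2 fold change, with its standard error, of CTNNB1_NFE2L2_MET against each model that lacks 1 introduced gene; filled points passed an adjusted p of 0.05. Ccnd1 (1.72), Cdkn1a (2.06) and Mdm2 (0.42) are filled against NFE2L2_MET, Mdm2, Ccng1 and Cdkn2b against CTNNB1_MET, and no gene against CTNNB1_NFE2L2.

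Ccnd1 was called in each comparison between models with 2 introduced genes. CTNNB1_MET against NFE2L2_MET exchanges mutant CTNNB1 for mutant NFE2L2, and 2 of the 10 genes were called, where 14.3% of all tested genes were called (6.96% higher, 7.36% lower): Ccnd1, higher, and Cdkn2b, lower (-1.91 ± 0.59 log2, adjusted p = 0.0407). The Cdkn2b call was lost without any 1 of 5 libraries, with values of -2.22 to -1.56 and adjusted p of 0.0647 to 0.135, namely each CTNNB1_MET library and NFE2L2_MET replicates 1 and 3. A term for the 3 libraries with marked file labels (-1.70, adjusted p = 0.0847) or their removal (-1.79, 0.147) lost it as well. CTNNB1_NFE2L2 against NFE2L2_MET exchanges CTNNB1 for MET, and 1 of the 10 genes was called, Ccnd1, which was higher, where 37.2% of all tested genes were called (18.3% higher, 18.9% lower). CTNNB1_MET against CTNNB1_NFE2L2 exchanges MET for NFE2L2, and 3 of the 10 genes were called, all lower in CTNNB1_MET, where 35.1% of all tested genes were called (17.2% higher, 17.9% lower). They were Ccnd1 (-0.57 ± 0.19, adjusted p = 0.0261), Ccng1 (-0.28 ± 0.08, 0.0168) and Mdm2 (-0.37 ± 0.14, 0.0482). Each was lost without CTNNB1_MET replicate 3 (-0.49, -0.25 and -0.35 in that order, adjusted p = 0.0965, 0.054 and 0.117) or without CTNNB1_NFE2L2 replicate 1 (-0.57, -0.21 and -0.23, adjusted p = 0.0579, 0.0831 and 0.226). Ccnd1 was also lost without CTNNB1_MET replicate 2 (-0.56, adjusted p = 0.0722) or CTNNB1_NFE2L2 replicate 2 (-0.52, 0.0885). Mdm2 was also lost without CTNNB1_MET replicate 1 (-0.32, 0.148) or CTNNB1_NFE2L2 replicate 3 (-0.40, 0.0657), or without the low-count filter (-0.37, 0.0505). A term for the 3 libraries with marked file labels (-0.31, 0.098) or their removal (-0.35, 0.065) lost Mdm2 as well.

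The genes whose levels ran most alike were found by Pearson's r of log2 CPM over the 15 libraries, among 8536 genes with a mean of at least 3, as a description. The libraries share group and depth, so the values carry no test. Ccnd1 was most like Glul (r = 0.967), the glutamine synthetase gene and a known β-catenin target in liver, which averaged 567 ± 47.5 CPM in WT, 313 ± 45.4 in NFE2L2_MET and 1803 ± 208 to 3921 ± 256 in the models with mutant CTNNB1 (SD, n = 3). Ccng1 was most like Tyrobp (r = 0.978), which encodes a myeloid cell signalling adaptor and averaged 6.42 ± 0.94 CPM in WT and 27.1 ± 4.53 in CTNNB1_NFE2L2_MET. It was also like Slc1a4 (r = 0.974), an amino acid transporter gene that averaged 5.59 ± 0.708 CPM in WT and 155 ± 33.1 in CTNNB1_NFE2L2_MET. Mdm2 was most like Fbxl14 (r = 0.925), and Csf1r (r = 0.919), the receptor of macrophage colony-stimulating factor was next but one. Cdkn1a was most like Nrd1 (r = 0.932). Ccnd2 was most like Bgn (r = 0.901), an extracellular matrix gene that averaged 133 ± 48.8 CPM in WT and 49.0 ± 9.28 to 70.0 ± 0.218 in the models. Arhgef3 was among the 3 most alike genes of both Cdkn1a (r = 0.886) and Trp53inp1 (r = 0.875). Myc was most like Gng12 (r = 0.888), Trp53inp1 like Tmc7 (r = 0.895), Cdkn2b like Rab3d (r = 0.887) and Cdkn2a like Slc31a2 (r = 0.839), and Cdkn1b had the lowest top value (Sltm, r = 0.770).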

How the data were processed

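The files deposited by the authors held raw read counts per gene from STAR, 1 file per library. The tools named are Trimmomatic and STAR and the build is mm10, per the submitters' processing notes. Which versions and which annotation were used is not given in the sources used here. Fresh frozen tissue and an RNeasy Mini kit were used for RNA, per the labels' protocols. Each file had an unstranded and 2 strand columns. Column 3 held 49.7 to 49.9% of the strand-specific sum, so the unstranded column was used, and genes that overlap on opposite strands cannot be separated. Rows for unmapped, multimapping, geneless and ambiguous reads stayed out of library sizes.

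Counts were fitted with edgeR 4.0.16 in R 4.3.3 over all 15 libraries, with TMM factors, filterByExpr by group, the robust quasi-likelihood F test, 10 contrasts and Benjamini-Hochberg adjustment over 14098 genes. Standard errors come from the F statistic. Members and lists were chosen with earlier results of these data known. Replicate numbers follow sample order. On counts simulated for CTNNB1_NFE2L2_MET against WT (13883 genes tested), the fit called 73 of 97 genes changed 2-fold, 89 of 99 changed 4-fold and 10 of 13687 unchanged. Few genes were changed there, up and down alike, and no outlying library or unmapped share was simulated. These rates therefore need not hold in the real comparison. Alternatives were RLE and total-count scaling, no filter, DESeq2 1.42.0, only the groups compared, a term for or removal of the 3 marked libraries, a term for the unmapped share, and each library left out. Removing the 3 libraries that stood apart was added after seeing the data. The genes named are the 10 members, the members of fixed lists with the smallest p or a textbook role, and the 3 most alike to each member. RPKM used GENCODE M21 exon lengths. Promoter windows were RefSeq's, and none was given for Trp53inp1, Ccnd1, Ccnd2 and Myc.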

Additional observations from a re-analysis of the deposited data

How the results depend on the processing

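Over the 10 comparisons there were 30 member calls. Of these, 15 were kept with each library left out, 4 under every alternative run and 14 under every alternative but the term for the unmapped share. That term, whose variable separates WT from the models, left 0 members called in CTNNB1_NFE2L2_MET, CTNNB1_NFE2L2 and NFE2L2_MET against WT, in CTNNB1_NFE2L2_MET against CTNNB1_MET and in CTNNB1_MET against CTNNB1_NFE2L2. All-gene calls with the term were 296, 607, 141, 576 and 1632 of 14098 in the same order. The term left 1 member in CTNNB1_MET against WT, 1 in CTNNB1_NFE2L2_MET against NFE2L2_MET and 1 in CTNNB1_MET against NFE2L2_MET. It gave 2 in CTNNB1_NFE2L2 against NFE2L2_MET. All-gene calls there were 540, 2555, 1059 and 4157 in that order. In the same fit all-gene calls in CTNNB1_NFE2L2_MET against WT went from 7039 to 296, and 4 called values changed sign without passing: Cdkn2b in CTNNB1_NFE2L2_MET against WT (-2.05, adjusted p = 0.521), NFE2L2_MET against WT (-0.76, 0.843) and CTNNB1_NFE2L2_MET against CTNNB1_MET (-0.70, 0.757), and Myc in CTNNB1_NFE2L2_MET against WT (-0.10, 0.982). The cause was not tested. Unmapped share and genotype cannot be told apart against WT, nor between models whose ranges of that share do not overlap.

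Without the 3 libraries that stood apart, 5 members were called in CTNNB1_MET against WT, 7 in CTNNB1_NFE2L2 against WT, 2 in CTNNB1_NFE2L2_MET against CTNNB1_NFE2L2 and 3 in CTNNB1_NFE2L2 against NFE2L2_MET. All-gene calls in the same order were 2332, 6414, 2602 and 4856 of 14264. Without the 3 marked libraries 1 member was called in CTNNB1_NFE2L2_MET against CTNNB1_NFE2L2, 1 in CTNNB1_MET against NFE2L2_MET and 2 in CTNNB1_NFE2L2 against NFE2L2_MET. All-gene calls in the same order were 3355, 1524 and 5526 of 14265. The term for the marked libraries left 1 member in CTNNB1_MET against NFE2L2_MET, beside 1795 of 14098 tested genes. In CTNNB1_NFE2L2 against NFE2L2_MET, DESeq2 called 2 and the fit on those groups alone 4, beside 5348 of 14098 and 5362 of 13491 tested genes. Total-count scaling moved the all-gene median to 0.38 in CTNNB1_NFE2L2_MET against NFE2L2_MET, where it called 6 members and 6928 of 14098 tested genes. It moved that median to 0.30 in CTNNB1_NFE2L2 against NFE2L2_MET, where it called 4 members and 6289 of 14098 tested genes. It gave all-gene medians of 0.22, 0.17 and -0.13 in CTNNB1_NFE2L2_MET, CTNNB1_NFE2L2 and NFE2L2_MET against WT, with 5226 higher and 1892 lower calls in the first, against 3739 and 3300 with TMM. The cause of these moves was not tested.

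Leaving out 1 library gave 5 to 7 member calls in CTNNB1_NFE2L2_MET against WT, 1 to 4 in CTNNB1_MET against WT, 4 to 7 in CTNNB1_NFE2L2 against WT and 1 to 5 in NFE2L2_MET against WT. With 14312 to 14348 genes tested, all-gene calls were 6092 to 6686, 1294 to 2249, 5700 to 6433 and 2137 to 3008 in the same order. Leaving out 1 library gave 1 to 3 members in CTNNB1_NFE2L2_MET against NFE2L2_MET, 1 to 4 against CTNNB1_MET and 0 to 1 against CTNNB1_NFE2L2. All-gene calls were 3241 to 4122, 3630 to 4463 and 2259 to 3240 in that order. Between the models with 2 introduced genes it gave 1 to 3 members in CTNNB1_MET against NFE2L2_MET, 1 in CTNNB1_NFE2L2 against NFE2L2_MET and 0 to 2 in CTNNB1_MET against CTNNB1_NFE2L2. All-gene calls were 1343 to 1654, 3980 to 4911 and 3721 to 4421 in that order. Of 1499 member values under an alternative, 1345 kept their direction or call, 98 lost a call, 52 gained one and 4 reversed, and 79 uncalled values changed sign. Of 3360 pathway list counts, 618 moved by over 1.5 times. Cdkn2a and Cdkn2b had at most 32 and 60 counts in a library, which limits the precision of their values. No paired analysis was possible because no label numbers the replicates or links a sample of one group with a sample of another.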
